A study of Mus musculus with 34 samples.

Results

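The interleukin 1 family and its receptors were read in 4 sorted populations of mouse mammary epithelial cells (MECs) as every array probe that the platform's gene table names for *Il33*, *Il1a*, *Il1b*, *Il18*, *Il1rn*, *Il1r1*, *Il1r2*, *Il1rl1* or *Il1rap*. The table names 19 such probes of 45281 on the array, for 8 of the 9 genes, and *Il1rl1*, the receptor for interleukin 33, was not analysed here because no probe carries its name. MECs came from virgin females 4 weeks of age that carry both the MMTVrtTA transgene and the tetracycline-inducible H2BGFP fusion (strain label CD1 backcrossed to FVB) and that received doxycycline, as the study's methods state. All groups share these alleles and this treatment. The transactivator is under the mouse mammary tumor virus promoter and the reporter is mosaic, so GFP+ and GFP- cells are sorted fractions of one genotype and not different strains. The 34 arrays hold 9 samples of GFP+ CD24+/CD29lo, 10 of GFP- CD24+/CD29lo, 9 of GFP+ CD24+/CD29+ and 6 of GFP- CD24+/CD29+ cells. The surface antigen CD29 (integrin beta-1) separates a basal gate, CD24+/CD29+, from a luminal gate, CD24+/CD29lo.

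Cytokines of this family signal through paired receptor chains that carry an intracellular domain shared with Toll-like receptors. The interleukin 1 alpha and beta proteins bind IL1R1, which then recruits the accessory chain IL1RAP, the adaptor MYD88, IRAK kinases and TRAF6, and the signal ends in NF-kappaB and MAP kinases. IL1RN is a secreted antagonist that occupies IL1R1, and IL1R2 is a decoy receptor that binds ligand without signalling. Interleukin 33 is held in the nucleus of epithelial and endothelial cells, is released when cells are damaged, and is sensed through IL1RL1 paired with IL1RAP. In the mammary gland interleukin 1 is best known from inflammation of the gland during infection.

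Luminal and basal markers followed the gates. The summed linear level of 4 pan-luminal markers (*Krt8*, *Krt18*, *Krt19*, *Epcam*) ran from 19200 to 31900 on CD24+/CD29lo arrays and from 2960 to 7590 on CD24+/CD29+ arrays, and that of 7 basal markers from 516 to 5530 and from 25600 to 49600. Sorting had removed CD45+/Ter119+ and CD31+ cells. Of 10 macrophage and myeloid markers, *Ptprc* (the CD45 transcript), *Itgam*, *Fcgr1* and *Fcer1g* were detected on no array, and the other 6 each on some arrays. Their summed level was 877 on GFP- CD24+/CD29lo replicate 14, with 4 markers detected, and from 230 to 353 on the other arrays, with 0 to 4 detected. Detection here means a detection p under 0.05 relative to negative controls on that array, and the share of probes detected ran from 26.3% to 46.7% of an array. The lowest share was that of GFP+ CD24+/CD29lo replicate 22. An inferred split puts the arrays in 2 sets, replicates 1 to 12 and 13 to 34, by array medians after the authors' processing. No sample label names these sets, and they were not matched to the 2 collection dates in the methods. Whether the split is technical was not tested. All GFP- CD24+/CD29+ arrays belong to the second set. Separate animals are not stated, so p-values measure the spread between these samples, which may be technical.

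Detection separated the members into a few that these cells carried and several at background. *Il33*, *Il1r1* and *Il1rap* were detected on most arrays of at least 3, 4 and 4 groups by the probe of highest mean. *Il1rn* was detected on 9 and *Il1r2* on 4 of the 34 arrays. *Il1a* was detected on 2 arrays and *Il1b* on 1 by the same kind of probe, and *Il18* on none of 34.

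**Figure D1:**
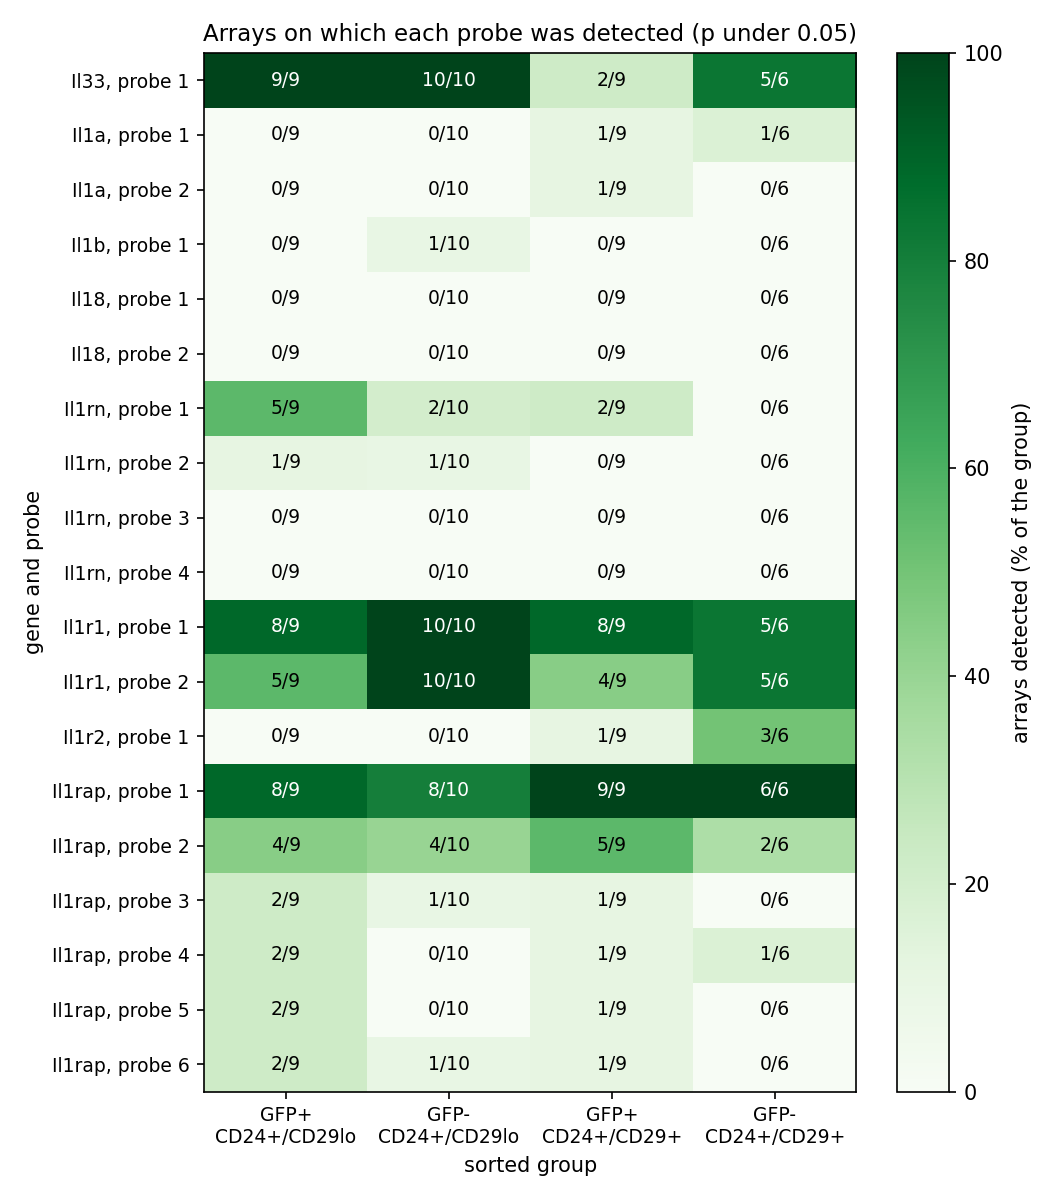
Number of arrays on which each of the 19 probes was detected (rows, probes numbered by falling mean level within a gene) in each sorted group (columns), with the colour giving the share of the group's arrays in percent. *Il33* was detected on 9 of 9 and 10 of 10 CD24+/CD29lo arrays and on 2 of 9 GFP+ CD24+/CD29+ arrays, while both *Il18* probes were detected on 0 arrays.

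Between GFP+ and GFP- CD24+/CD29lo cells, 2 of the 8 members were called, and both were lower in GFP+ cells. They were *Il33*, an alarmin cytokine, and *Il1r1*, the signalling receptor for interleukin 1. Over all 35870 probes tested 1.11% were called in this comparison, and 0.836% were called lower. The members were chosen with earlier results of these data known, so no excess over these shares was read. A call is an adjusted p under 0.05 in the limma fit of all 4 groups, with Benjamini-Hochberg adjustment over all probes tested. In RNA from sorted populations, fewer cells of a type and less RNA per cell cannot be told apart.

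*Il33* was the member with the widest range between groups. Its normalized level (log2 throughout) ran from 9.85 to 11.56 with a median of 10.76 on the 10 GFP- CD24+/CD29lo arrays. On the 9 GFP+ CD24+/CD29lo arrays it ran from 5.76 to 8.80 with a median of 7.37. Every GFP+ array of this compartment therefore lay below every GFP- array, and *Il33* was detected on all 19. On the 6 GFP- CD24+/CD29+ arrays the level ran from 4.59 to 8.12 with a median of 6.12, and on the 9 GFP+ CD24+/CD29+ arrays from 4.55 to 7.41 with a median of 4.77. In those basal-gated groups *Il33* was detected on 5 of 6 and 2 of 9 arrays, and replicate 15 was the only GFP+ array of the compartment above 5.06. The order of means was GFP- CD24+/CD29lo (10.80 ± 0.55, SD, n = 10), GFP+ CD24+/CD29lo (7.45 ± 0.93, n = 9), GFP- CD24+/CD29+ (6.24 ± 1.24, n = 6) and GFP+ CD24+/CD29+ (5.08 ± 0.89, n = 9). On average the *Il33* probe stood above 97.7% of the probes of a GFP- CD24+/CD29lo array and above 83.5% of those of a GFP+ CD24+/CD29lo array. The ranges of the groups next to each other at the lower end of that order overlapped.

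*Il33* fell by 3.35 (SE 0.40) in GFP+ against GFP- CD24+/CD29lo cells, a 10.2-fold difference (limma, adjusted p = 1.6e-06). The difference held in each array set, with means of 7.52 and 10.47 in the first (-2.96, adjusted p = 0.0033) and 7.39 and 11.02 in the second (-3.62, adjusted p = 0.0048). Some markers of luminal subsets also differed between these groups. The summed level of 4 measured hormone-sensing luminal markers (*Esr1*, *Pgr*, *Foxa1*, *Wnt4*) ran from 624 to 1810 on GFP- arrays and from 98.5 to 619 on GFP+ arrays of this compartment. *Esr1*, the estrogen receptor, differed by -2.77 (SE 0.46, adjusted p = 3.4e-04), *Pgr*, the progesterone receptor, by -1.85 (SE 0.40, adjusted p = 0.011), and *Foxa1*, a cofactor of the estrogen receptor, by -1.49 (SE 0.20, adjusted p = 2.2e-05). *Wnt4* was not called, and *Prlr* and *Areg*, also on this list, have no probe of that name in the gene table used here. The study itself reports both transcripts as lower in GFP+ CD24+/CD29lo cells, by array and by qPCR. The summed level of 6 luminal progenitor markers ran from 3290 to 8370 on GFP- and from 6210 to 12500 on GFP+ arrays, and that of the 7 basal markers from 516 to 2370 and from 990 to 5530. These ranges overlapped, and 1 of the 6 and 3 of the 7 markers were called higher in GFP+ cells. Of all 35870 probes tested, 99 were called higher in this comparison. The part of these mixtures in the *Il33* difference was not tested.

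The regions ahead of the annotated starts of *Il33* and *Il1r1* are shown because these are the members called lower in GFP+ CD24+/CD29lo cells. Each line gives the 250 bases before a RefSeq start in GRCm38.p6, 5′ to 3′, with motif matches in capitals. The motifs sought on both strands were TATAAA, the AP-1 site TGANTCA, the nuclear receptor half-site AGGTCA, and the kappaB consensus.
Il33 start window 1, chr19:29924863-29925112, plus strand: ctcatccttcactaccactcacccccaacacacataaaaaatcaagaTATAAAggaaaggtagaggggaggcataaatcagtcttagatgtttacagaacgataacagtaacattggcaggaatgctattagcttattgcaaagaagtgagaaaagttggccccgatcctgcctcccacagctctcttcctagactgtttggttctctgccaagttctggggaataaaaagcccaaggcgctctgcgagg
Il33 start window 2, chr19:29945540-29945789, plus strand: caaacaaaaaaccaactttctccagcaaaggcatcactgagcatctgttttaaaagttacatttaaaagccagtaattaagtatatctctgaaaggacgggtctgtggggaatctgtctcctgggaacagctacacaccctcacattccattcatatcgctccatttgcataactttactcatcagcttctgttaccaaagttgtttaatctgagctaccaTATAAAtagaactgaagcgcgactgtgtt
Il1r1 start window 1, chr1:40224830-40225079, plus strand: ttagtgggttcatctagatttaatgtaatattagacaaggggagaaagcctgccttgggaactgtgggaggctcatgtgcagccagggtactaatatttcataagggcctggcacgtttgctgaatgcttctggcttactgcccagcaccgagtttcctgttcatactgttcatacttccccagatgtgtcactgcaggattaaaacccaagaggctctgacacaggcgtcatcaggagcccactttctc
Il1r1 start window 2, chr1:40266336-40266585, plus strand: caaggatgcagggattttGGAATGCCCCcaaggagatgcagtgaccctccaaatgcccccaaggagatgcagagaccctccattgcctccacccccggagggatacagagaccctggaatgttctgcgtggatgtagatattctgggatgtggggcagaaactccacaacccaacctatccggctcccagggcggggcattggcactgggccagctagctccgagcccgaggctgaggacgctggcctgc
*Il33* has the motif TATAAA 203 bases before the first of these starts and 29 bases before the second, and *Il1r1* has neither. The second *Il1r1* window holds 1 match to the kappaB consensus on the minus strand, which begins 232 bases before the start. No window of the 4 holds TGANTCA or AGGTCA. Among 32851 windows of the same length, 12.4% hold TATAAA, 6.75% the AP-1 site, 14.0% the half-site and 7.25% the kappaB consensus, and nothing particular to these members was read from the matches. The windows differ in base composition, with a GC content of 45.2% and 39.6% for *Il33* and 48.4% and 60.4% for *Il1r1*. Which start the RNA of these cells used was not measured.

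*Il1r1* was read by 2 probes, and both placed it lower in GFP+ CD24+/CD29lo cells. The probe of higher mean, a designed 50-base sequence against a gene on chromosome 1, is shown because it stands for *Il1r1* wherever the second probe is not named.
Il1r1 probe 1: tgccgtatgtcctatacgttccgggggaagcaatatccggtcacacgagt
By this probe the level ran from 8.19 to 9.38 with a median of 8.55 on the 10 GFP- CD24+/CD29lo arrays. On the 9 GFP+ arrays of the compartment it ran from 5.19 to 8.05 with a median of 7.24. The groups did not overlap, although GFP+ replicate 2, at 8.05, came close to GFP- replicate 7, at 8.19. In CD24+/CD29+ cells the level ran from 4.70 to 8.42 with a median of 7.36 on 6 GFP- arrays and from 4.55 to 7.29 with a median of 6.77 on 9 GFP+ arrays. The order of means was GFP- CD24+/CD29lo (8.63 ± 0.34, SD, n = 10), GFP- CD24+/CD29+ (7.05 ± 1.48, n = 6), GFP+ CD24+/CD29lo (6.92 ± 0.89, n = 9) and GFP+ CD24+/CD29+ (6.26 ± 0.95, n = 9), and neighbours in this order overlapped in range. Replicates 21 (8.24) and 30 (8.42) of the GFP- CD24+/CD29+ cells lay within the range of GFP- CD24+/CD29lo cells.

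*Il1r1* fell by 1.71 (SE 0.41) in GFP+ against GFP- CD24+/CD29lo cells, a 3.28-fold difference (limma, adjusted p = 0.028), beside the same marker shifts as for *Il33*. The second probe gave a larger difference of -2.14 (SE 0.40, adjusted p = 0.0020), with levels from 6.27 to 8.53 on GFP- and from 4.63 to 6.81 on GFP+ arrays, and 8 of 9 GFP+ arrays below all GFP- arrays. The call of the first probe was close to the threshold: it was lost without replicate 12 (adjusted p = 0.052), 22 (0.069) or 34 (0.070) of the GFP+ cells and without GFP- replicate 18 (0.057). Within the first array set its difference was -1.06 (adjusted p = 0.29) and within the second -2.20 (adjusted p = 0.17).

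**Figure D2:**
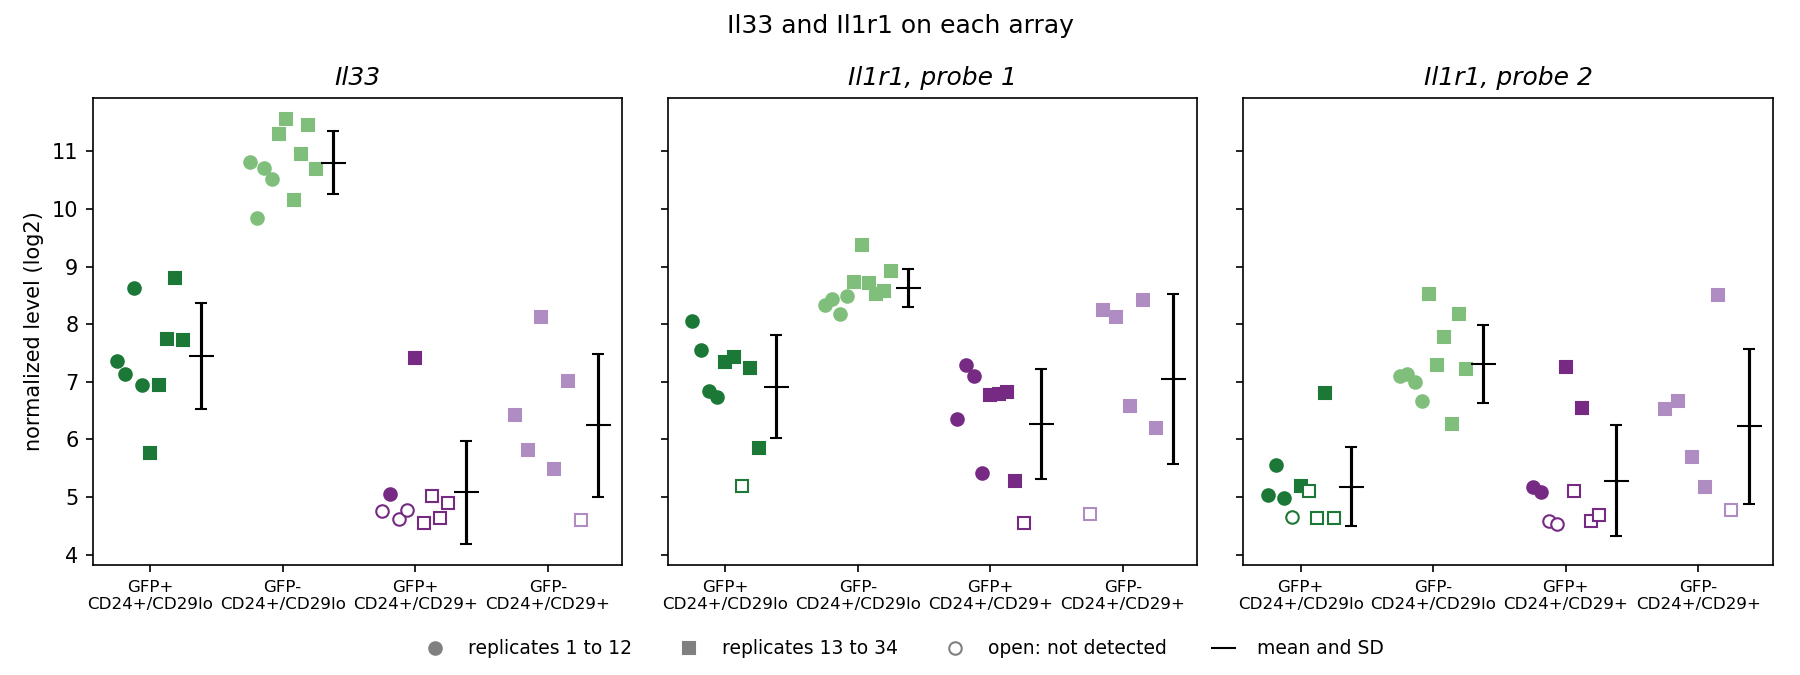
Normalized level (log2, y axis) of *Il33* and of both *Il1r1* probes on each of the 34 arrays by sorted group (x axis), with circles for replicates 1 to 12, squares for replicates 13 to 34, open symbols where the probe was not detected, and a bar for the mean and SD. The GFP- CD24+/CD29lo arrays sit between 9.85 and 11.56 for *Il33*, above all others, while GFP+ CD24+/CD29+ arrays are open symbols near background except for 2 arrays.

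The remaining members were not called between GFP+ and GFP- CD24+/CD29lo cells. *Il1rn*, the receptor antagonist, had the widest spread among GFP+ arrays: it ran from 4.60 to 8.64 with a median of 5.15 on 9 GFP+ arrays and from 4.56 to 5.30 with a median of 4.73 on 10 GFP- arrays. Replicates 4, 10, 23 and 34 of the GFP+ cells, at 6.52, 7.59, 6.46 and 8.64, lay above every GFP- array, and the other 5 lay within or close to the GFP- range. The difference was 1.15 (SE 0.36, 95% interval 0.40 to 1.89) and did not pass (limma, adjusted p = 0.16). A second tested *Il1rn* probe, detected on 1 array of each of these groups, gave 0.12 (adjusted p = 0.95), and the other 2 probes were detected on no array.

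*Il1rap*, the accessory chain that IL1R1 and IL1RL1 share, was detected on 31 of 34 arrays. Its level ran from 4.75 to 8.59 with a median of 7.18 in GFP+ and from 4.77 to 6.94 with a median of 5.40 in GFP- CD24+/CD29lo cells. The groups overlapped, with 5 of 9 GFP+ arrays above all GFP- arrays and 1 below them. The difference of 1.16 (SE 0.45, 95% interval 0.23 to 2.08) did not pass (adjusted p = 0.35). In CD24+/CD29+ cells *Il1rap* ran from 5.62 to 8.02 on GFP+ and from 5.23 to 7.99 on GFP- arrays. The 4 other tested *Il1rap* probes gave differences of 0.22 to 0.36 in CD24+/CD29lo cells, none called, and none of them was detected on more than 5 arrays of a group.

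The ligands of IL1R1 and *Il18* lay at background on nearly all arrays. *Il1a* ran from 4.45 to 4.82 in GFP+ and from 4.48 to 4.75 in GFP- CD24+/CD29lo cells and was detected on 0 arrays of either group. *Il1b* was detected on GFP- CD24+/CD29lo replicate 14 alone, at 5.79, against a group median of 4.52. On that array the summed level of 10 macrophage and myeloid markers was 877, with 4 of the 10 detected, against 230 to 353 on all other arrays. The part of myeloid RNA in this *Il1b* value was not tested. *Il18*, whose precursor caspase-1 cleaves as it does that of *Il1b*, ran from 4.42 to 5.02 over all 34 arrays without detection. Differences of these 3 genes lay between -0.10 and 0.15 in all 5 comparisons. At these signals a difference was not detectable, which does not show that the transcripts were absent.

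No member was called between GFP+ and GFP- CD24+/CD29+ cells, a comparison in which 0.153% of all probes were called. *Il33* was lower by a fitted -1.16 (SE 0.46, 95% interval -2.09 to -0.24, adjusted p = 0.40), with 1 of 9 GFP+ arrays below all GFP- arrays. *Il1r1* differed by -0.78 (SE 0.47, adjusted p = 0.60) and *Il1r2* by -1.11 (SE 0.32, adjusted p = 0.20). At an unadjusted p under 0.05, 3435 probes passed in this comparison.

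Whether the GFP difference itself differed between compartments was tested as an interaction, in which 0.27% of probes and no member were called. For *Il33* the fitted interaction was -2.19 (SE 0.60, 95% interval -3.42 to -0.96) and did not pass (adjusted p = 0.16). *Il33* was detected on only 2 of the 9 GFP+ CD24+/CD29+ arrays, so the GFP difference in that compartment is limited by background, and the size of the interaction under any setting is limited with it. That interaction was called without background correction (-2.25, adjusted p = 0.0012), in the authors' processed values (-2.26, adjusted p = 3.6e-04) and without GFP- CD24+/CD29+ replicate 25 (-2.57, adjusted p = 0.041), where *Il33* was highest in its group at 8.12. For *Il1r1* the interaction was -0.93 (SE 0.63, adjusted p = 0.71).

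Between the CD29 compartments of GFP- cells 3 members were called, where 10.3% of all probes were. *Il33* and *Il1r1* were lower in CD24+/CD29+ cells (5.04% of probes were called lower) and *Il1r2*, the decoy receptor, was higher (5.29% called higher). *Il33* fell by 4.56 (SE 0.45), a 23.6-fold difference (limma, adjusted p = 2.7e-09), with all 6 CD24+/CD29+ arrays below all 10 CD24+/CD29lo arrays. In the second array set alone, the one that holds both groups, it was -4.78 (adjusted p = 9.7e-06). *Il1r1* fell by 1.58 (SE 0.46, adjusted p = 0.023), with 4 of 6 arrays below the CD24+/CD29lo range. Its call was lost without CD24+/CD29+ replicate 13 (-1.11, adjusted p = 0.11), 29 (-1.49, adjusted p = 0.052) or 33 (-1.42, adjusted p = 0.070), in the second array set alone (-1.76, adjusted p = 0.089) and by the second probe (-1.09, adjusted p = 0.13).

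*Il1r2* was detected on 0 of 10 GFP- CD24+/CD29lo arrays and on 3 of 6 GFP- CD24+/CD29+ arrays. On the latter it read 8.32 in replicate 29, 6.48 in replicate 25, 5.37 in replicate 13, 5.09 in replicate 33, 4.83 in replicate 21 and 4.45 in replicate 30, against a range of 4.37 to 4.76 in CD24+/CD29lo cells. Replicates 25 and 29 stood well above background and 1 array lay within the CD24+/CD29lo range. *Il1r2* was at least 1.64-fold higher (limma, adjusted p = 0.0080), the mean of CD24+/CD29+ arrays against the lowest detected signal of each CD24+/CD29lo array. Its probe passed the filter for entry into the fit only through the GFP- CD24+/CD29+ arrays, the group in which it was called higher. With no filter the *Il1r2* difference was still called (limma, adjusted p = 0.010). Without replicate 29 the fitted difference dropped from 1.23 to 0.72 (adjusted p = 0.017), and in the second array set alone it was 1.18 and not called (adjusted p = 0.13). Fibroblast markers also differed between these groups: the summed level of 6 ran from 837 to 2350 on GFP- CD24+/CD29+ arrays and from 157 to 532 on GFP- CD24+/CD29lo arrays. Within the GFP- CD24+/CD29+ arrays the sum was 2350 in replicate 29, 1090 in replicate 25 and 837 in replicate 13. It was 1390 in replicate 33, 1740 in replicate 21 and 1520 in replicate 30. The part of fibroblast RNA in the *Il1r2* difference was not tested. Neutrophils are known to carry *Il1r2*. The summed level of 4 neutrophil markers ran from 93.3 to 116 on GFP- CD24+/CD29+ arrays and from 94.2 to 173 on GFP- CD24+/CD29lo arrays. Of the 4, *S100a8* and *S100a9* were detected on 0 of the 6 GFP- CD24+/CD29+ arrays and *Csf3r* and *Cxcr2* on 1 each, with 1 marker detected on replicate 13 and 1 on replicate 21. The part of neutrophil RNA in the *Il1r2* difference was not tested.

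Between the CD29 compartments of GFP+ cells only *Il33* was called among the members, where 10.4% of all probes were called and 4.86% called lower. *Il33* fell by 2.37 (SE 0.41) in CD24+/CD29+ cells (limma, adjusted p = 5.9e-05), with 8 of 9 arrays below all CD24+/CD29lo arrays. It was detected on only 2 of those 9 arrays, so most of them give a level at background. In the first array set it was -2.71 (adjusted p = 4.5e-04) and in the second -2.10 (adjusted p = 0.060). *Il1r1* differed by -0.65 (SE 0.42, adjusted p = 0.46) by the first probe and by 0.11 (SE 0.41, adjusted p = 0.94) by the second.

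**Figure D3:**
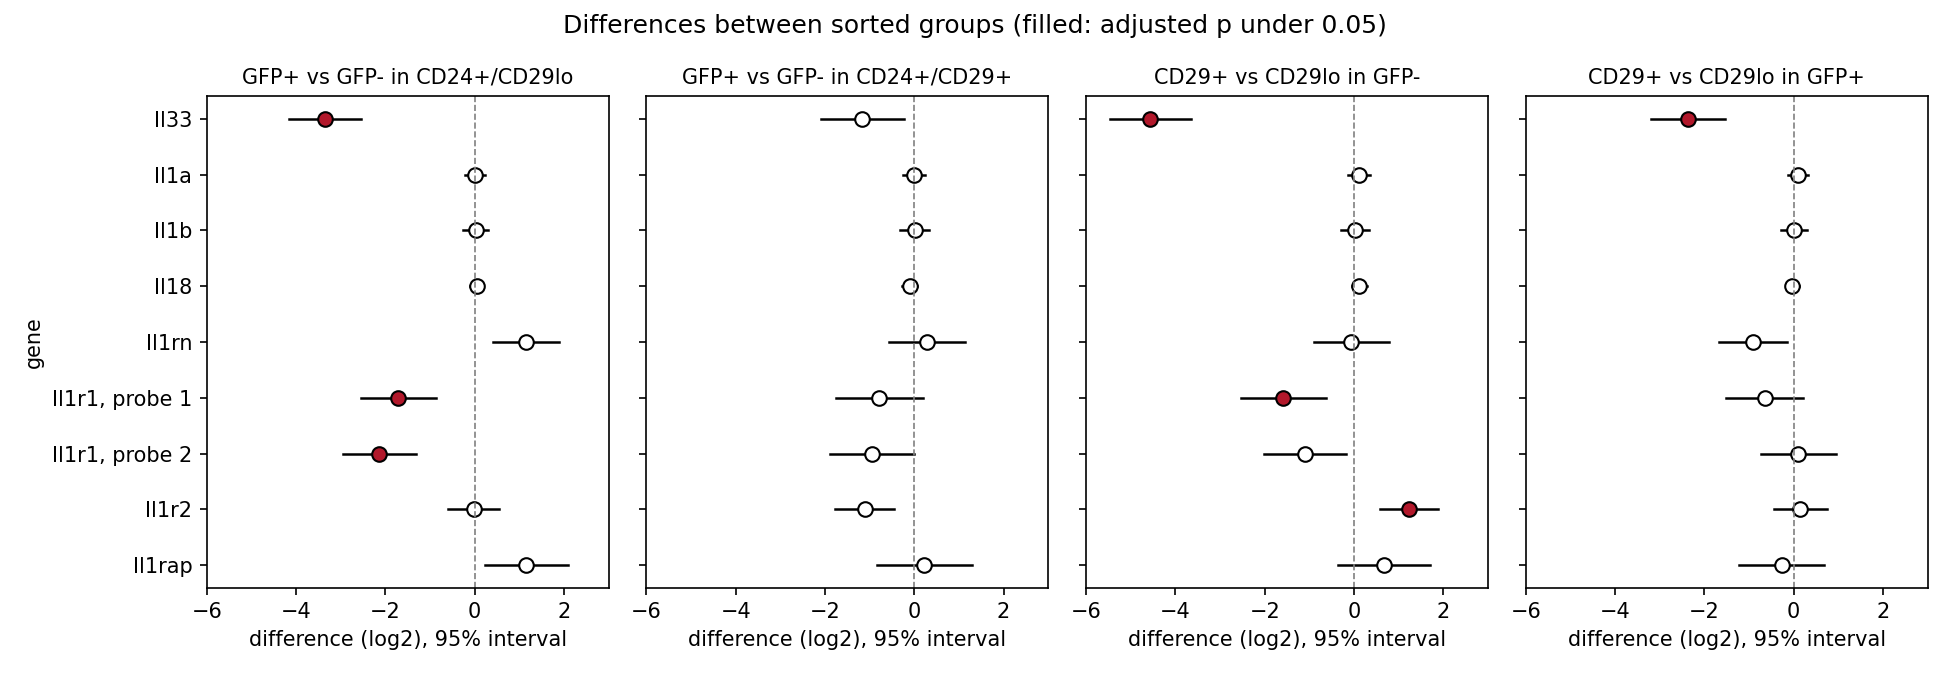
Fitted difference (log2, x axis) with its 95% interval for each member (rows, the probe of highest mean, and both *Il1r1* probes) in 4 comparisons (panels), filled where the adjusted p is under 0.05. *Il33* lies at -3.35, -1.16, -4.56 and -2.37 from left to right and is filled in 3 of the 4 panels, while *Il1a*, *Il1b* and *Il18* lie at 0 within their intervals.

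Other components of the pathway were read from lists of further ligands and processing enzymes, receptors, signal carriers and induced genes. Of 10 tested ligand and processing genes none was called between GFP+ and GFP- CD24+/CD29lo cells, with a median difference of 0.019 against -0.00046 over all genes. *Casp4*, an inflammatory caspase and the member of this list with the highest mean, differed by 0.54 (SE 0.37, adjusted p = 0.78). Between compartments of GFP- cells 1 of the 10 was called, a share near the 10.3% of all probes: *Casp4* was 1.56 higher in CD24+/CD29+ cells (SE 0.42, adjusted p = 0.011). *Casp1*, which cleaves the precursors of interleukin 1 beta and 18, averaged 8.33 in GFP- CD24+/CD29+ cells and 6.50 in GFP- CD24+/CD29lo cells (adjusted p = 0.054).

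Among 5 tested receptors of the family 1 was called in each comparison between compartments, where 10.3% and 10.4% of all probes were, and 0 in the comparisons by GFP. *Il18r1*, the ligand-binding chain for interleukin 18, gave detected signal on 7 of 9 GFP+ and on 10 of 10 GFP- arrays of CD24+/CD29lo cells, and on none of the CD24+/CD29+ arrays (0 of 9 GFP+, 0 of 6 GFP-). Its CD24+/CD29lo mean stood 9.57-fold above the lowest detected signals of the CD24+/CD29+ arrays among GFP- samples and 3.50-fold among GFP+ samples. By the fit *Il18r1* was called lower in CD24+/CD29+ cells in both comparisons (limma, adjusted p = 2.8e-06 and 6.2e-04). Within CD24+/CD29lo cells it averaged 6.94 in GFP+ and 8.47 in GFP- samples, a difference of -1.54 (SE 0.49) that did not pass (adjusted p = 0.16). *Il18rap*, its signalling partner, averaged 5.28 to 5.66 in the 4 groups and was not called.

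Of 17 tested signal carriers none was called by GFP in either compartment. *Rela*, an NF-kappaB subunit and the list's member of highest mean, differed by 0.34 (SE 0.32, adjusted p = 0.88) in CD24+/CD29lo cells. In GFP- cells, where 10.3% of all probes were called, 2 of the 17 were lower in CD24+/CD29+ samples and 0 higher, a share near that of all probes: *Irak2*, an IRAK kinase family member, by -2.84 (SE 0.45, adjusted p = 2.2e-05), and *Irak1* by -1.31 (SE 0.37, adjusted p = 0.017). In GFP+ cells, where 10.4% of all probes were called, 3 of the 17 were called. *Irak2* differed by -3.20 (SE 0.41, adjusted p = 4.3e-07) and *Traf6*, the ubiquitin ligase of the pathway, by -1.56 (SE 0.50, adjusted p = 0.040), while *Myd88*, the adaptor, was 1.48 higher (SE 0.47, adjusted p = 0.038). The median difference of the list was -0.36 in GFP- and -0.38 in GFP+ cells, against 0.028 and -0.010 over all genes.

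Genes that interleukin 1 induces in many cell types were tested with 14 genes. By GFP in CD24+/CD29lo cells, where 1.11% of all probes were called, 1 of the 14 was called: *Cxcl1*, a neutrophil chemokine, was 0.52 higher in GFP+ cells (SE 0.12, adjusted p = 0.025), in the group where *Il33* and *Il1r1* were lower. The list's median difference was 0.29 there. Between compartments 5 of 14 were lower and 2 higher in CD24+/CD29+ samples of GFP- cells, and 7 lower and 2 higher in GFP+ cells. Of all probes, 10.3% and 10.4% were called in these comparisons. *Cxcl2*, another neutrophil chemokine, differed by -2.66 (SE 0.52, adjusted p = 4.0e-04) in GFP- and by -4.15 (SE 0.47, adjusted p = 3.9e-08) in GFP+ cells. *Tnfaip3*, a brake on NF-kappaB, differed by -1.36 (SE 0.29, adjusted p = 0.0011) and -1.95 (SE 0.26, adjusted p = 1.1e-06), and *Nfkbia*, an inhibitor of NF-kappaB, by -1.76 (SE 0.22, adjusted p = 2.2e-07) in GFP+ cells. Against that direction, *Icam1*, which binds leukocyte integrins, was higher by 1.51 (SE 0.36, adjusted p = 0.0040) and 2.32 (SE 0.33, adjusted p = 2.6e-06), and *Il6*, an inflammatory cytokine, rose by 2.98 (SE 0.52, adjusted p = 1.0e-04) in GFP- cells. Between GFP+ and GFP- CD24+/CD29+ cells none of the genes on these 4 lists was called, and none was in the interaction.

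**Figure D4:**
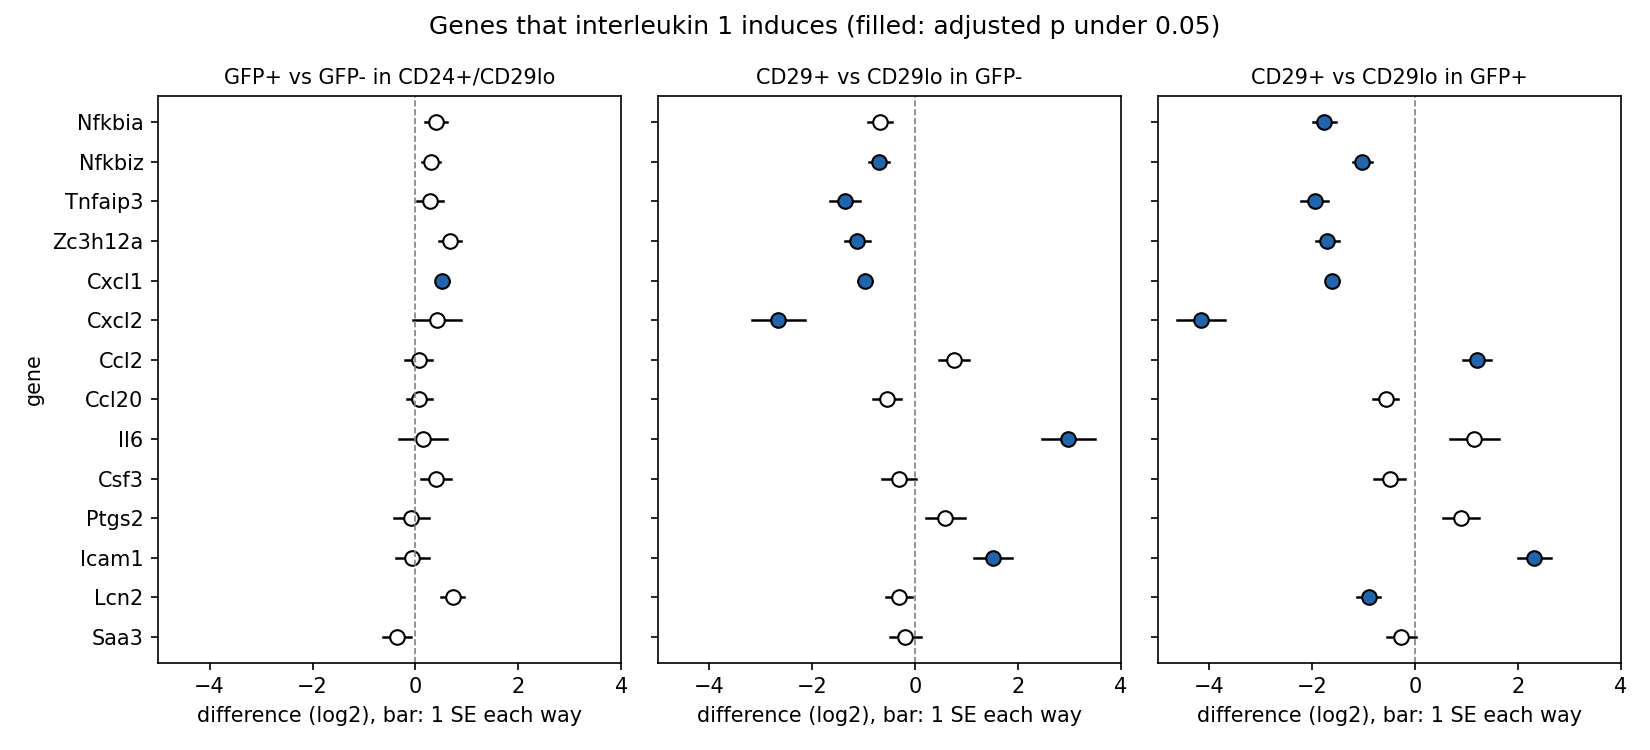
Fitted difference (log2, x axis, bar of 1 SE each way) of the 14 tested genes that interleukin 1 induces in many cell types (rows) in 3 comparisons (panels), filled where the adjusted p is under 0.05. By GFP in CD24+/CD29lo cells *Cxcl1* alone is filled, at 0.52, while between compartments *Cxcl2* lies at -2.66 and -4.15 and *Icam1* at 1.51 and 2.32.

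The genes whose levels followed *Il33* most closely over the 34 arrays were *Fgb*, the fibrinogen beta chain (Pearson r = 0.956), *Gipc2* (0.916), the transcription factor gene *Myb* (0.914), *Slc12a2*, a sodium, potassium and chloride cotransporter (0.913), and *Upk3a*, a uroplakin (0.905). These values describe the arrays, which share the group differences, and after removal of the group means r was 0.692 for *Fgb* and 0.208 to 0.385 for the others. *Fgb* averaged 9.91 ± 0.52 (SD, n = 10) in GFP- and 7.06 ± 1.05 (n = 9) in GFP+ CD24+/CD29lo cells, and in CD24+/CD29+ cells 2 of 9 GFP+ arrays and 1 of 6 GFP- arrays showed it above background. For *Il1r1* they were *Tgm2*, a transglutaminase (r = 0.818), *Capsl* (0.788), *Slc12a2* (0.777), *Gipc2* (0.776) and *Cdo1*, a cysteine dioxygenase (0.772), with r of 0.448 to 0.613 after removal of the group means. *Tgm2* averaged 11.77 ± 0.34 in GFP- and 10.09 ± 0.63 in GFP+ CD24+/CD29lo cells. *Slc12a2* and *Gipc2* stood on both lists.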

How the data were processed

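The deposited intensity values are the authors' Illumina WG-6 version 2 probe signals on a linear scale, without normalization. A fraction deposited beside each signal equals 1 minus its detection p. A deposited table of log2 values holds what the authors processed (the methods name quantile normalization in GeneSpring and an empirical Bayes correction for 2 collection dates, and not which step made the table). The submitters' processing notes name R 2.14.1. Signals of all 34 arrays were background-corrected, quantile-normalized and log2-transformed with neqc (limma 3.58.1, R 4.3.3, offset 16). Probes entered the fit if, in 1 or more groups, 80% of arrays exceeded their own 20th percentile (35870 probes, 14 of the 19 members' probes). One limma model with a mean per group gave every comparison, by moderated two-sided tests. The model has no batch term, since the labels give no collection dates. The array sets were read from the medians of the processed values. Each gene was represented by its probe of highest mean, and probes were named from the platform table matched to RefSeq (34885 with 1 symbol, 18 with several, 10378 with none). Named are all members, up to 3 called genes of largest difference per list and comparison or else the list's gene of highest mean, and the 5 genes with the highest r. *Casp1*, *Il18rap* and the marker genes were named beside these, and some genes the rule names are given only in counts. The members and lists were chosen with earlier results of these data known. The steps were tested on simulated data. Alternatives were no background correction, each compartment normalized alone, the processed values, the array set as a term or each set alone, no filter or a detection filter, the methods' t-test, other probes of a gene, and leaving out each array.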

Additional observations from a re-analysis of the deposited data

Results flagged for a closer look

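In 8 of 36 combinations of member probe and group, 1 array stood apart from the others by Dixon's test of the gap to the nearest array. For independent, normally distributed values chance gives about 1 in 20. The combinations share arrays and many levels lie at background, so no excess was read from this count. GFP+ CD24+/CD29+ replicate 15 read 7.41 for *Il33*, against a next highest 5.06 in its group. GFP+ CD24+/CD29lo replicate 23 read 6.81 for the second *Il1r1* probe, against 5.56. GFP+ CD24+/CD29+ replicate 9 read 5.71 for *Il1r2*, against 4.64, and was the only detected array of that group. The other 5 were at or near background. GFP- CD24+/CD29+ replicate 30 stood highest in its group for *Il1a* (5.40) and *Il18* (5.02) and lowest for *Il1b* (4.43). *Il1b* was highest at 5.27 in GFP+ CD24+/CD29lo replicate 34 and at 5.79 in GFP- CD24+/CD29lo replicate 14, the only one of these *Il1b* arrays where it was detected.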

How the results depend on the processing

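*Il33* kept its direction and its call between GFP+ and GFP- CD24+/CD29lo cells under 9 of 9 alternatives (-3.62 to -2.65) and without each array in turn (-3.52 to -3.14). It also kept both with CD29 in GFP- cells. Among the members called, 2 were called in the first comparison, against 1 in replicates 13 to 34 alone and 1 in replicates 1 to 12 alone, and 1 to 2 without each array in turn. With CD29 in GFP- cells 3 were called, against 1 in replicates 13 to 34, 1 by the methods' t-test and 2 to 3 without each array. With CD29 in GFP+ cells 1 was called, against 0 in replicates 13 to 34. In the interaction 0 were called, against 1 without background correction, 1 in the processed values and 0 to 1 without each array. The methods' t-test also ended the calls of *Il1r1* (adjusted p = 0.058) and *Il1r2* (adjusted p = 0.11) with CD29 in GFP- cells.

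Of all probes, 399 were called by GFP in CD24+/CD29lo cells, 785 in the processed values, 203 in replicates 13 to 34 and 249 by the t-test. By GFP in CD24+/CD29+ cells 55 were called, 10 with the compartment normalized alone, 83 in the processed values, 10 in replicates 13 to 34, 1 by the t-test, and 43 to 105 without each array (105 without GFP- replicate 33 and 85 without GFP- replicate 21). By CD29, replicates 13 to 34 gave 2275 against 3705 in GFP- and 2072 against 3725 in GFP+ cells. The interaction gave 97, 178 in the processed values and 30 in replicates 13 to 34.

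Differences of members that were not called changed sign near 0. These were *Il1rn* with CD29 in GFP- cells (0.0087 in the processed values, 0.059 with the array set as a term, 0.065 by its second probe, -0.11 to 0.00097 without each array) and with GFP in CD24+/CD29+ cells (-0.11 by its second probe). *Il1rap* did so with CD29 in GFP+ cells (0.16 in replicates 1 to 12, 0.27 by its second probe), with GFP in CD24+/CD29+ cells (-0.024 by its second probe) and with CD29 in GFP- cells (-0.10 by its sixth). *Il1r1* gave 0.11 with CD29 in GFP+ cells by its second probe. *Il1r2* gave -0.019 with CD29 in GFP+ cells in replicates 13 to 34 and -0.050 to 0.00049 with GFP in CD24+/CD29lo cells without each array. The cause of these changes was not tested. *Il1a*, *Il1b* and *Il18* were called under none of 43 settings (smallest adjusted p = 0.20). No paired analysis was run. The replicate numbers only count the arrays from 1 to 34. The labels do not say which samples came from the same animals, so any pairing of the groups is unknown. Slides were not given in the headers used here, so a slide block was not run. Signal over background limits every group in which a probe was detected on few arrays.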
